A study of Caenorhabditis elegans with 2 samples.

Results

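The genes cebp-1 and cebp-2 encode C/EBP-type transcription factors of the basic leucine zipper (bZIP) class in Caenorhabditis elegans, and they are 2 of the 19985 protein-coding genes of the WBcel235 annotation. Both were chosen from these same binding data, in which each had a listed binding region close to its 5' end, so their signals, ranks and positions are given as a description and no test was made on them. The data are chromatin immunoprecipitation and sequencing (ChIP-seq) of the Fos-type factor FOS-1, in which DNA bound by the tagged protein is pulled down and sequenced. All libraries came from whole first-stage (L1) larvae of strain OP304, males and females pooled, of genotype unc-119(ed3) III with the insertion wgIs304, which carries eGFP-tagged fos-1. The single group has 2 biological replicates from separate biosamples of this one strain, so the allele and the transgene are shared by every larva measured, and the larvae's own fos-1 gene is not stated to be altered. The labels give neither the promoter that drives the tagged gene nor an age within the stage. Whole larvae were used, so the values do not tell in which cells a region was bound.

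The 1174 bp gene cebp-1 (WBGene00016997) lies on the minus strand at X:1452695-1453868 in build ce11 (WBcel235), in 3 exons that encode 319 amino acids. Its own upstream side is open: the next protein-coding gene there, D1005.2, starts 5153 bp away on the opposite strand. W05H7.1 ends 388 bp beyond its 3' end. The gene cebp-2 (WBGene00016754), 503 bp long with 3 exons and 100 amino acids, lies on the plus strand at I:6253082-6253584 and is tightly packed. The gene cof-2 ends 205 bp before it and lpd-2, named for a lipid-depleted phenotype, starts 116 bp after it, both on the same strand.

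C/EBP proteins bind DNA as dimers through a basic region next to a leucine zipper, and their preferred site is the palindrome TTGCGCAA or close forms of it. Fos and Jun proteins dimerise in the same way and bind the AP-1 site TGACTCA. In C. elegans, CEBP-1 is known for its part in synapse and axon biology: a kinase cascade of DLK-1, MKK-4, PMK-3 and MAK-2 keeps its messenger RNA stable and translated in neurons, and cebp-1 is needed for the regrowth of cut axons. CEBP-2 is known as a dimer partner of CEBP-1, and cebp-1 has also been tied to immune and developmental signalling through the pseudokinase NIPI-3.

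Binding is described by 4 lists of regions that the authors deposited for build ce11. The list of each replicate and the pooled list hold strong regions and background alike (29801, 23483 and 20363 entries), and the list kept by the irreproducible discovery rate (IDR) procedure holds 1895. Each entry has a summit and a signal value in the authors' units, whose scaling is not stated, so signals are read against others in the same list and lists are set side by side by rank. A rank of 1 is the highest signal of its list. The lists hold no read counts, so depth is unknown and an absent entry means only that none was listed.

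The sequence under the strongest cebp-1 region is shown because it carries both AP-1 sites of that region, which are in capitals. It is the RefSeq WBcel235 genome at X:1454461-1454760, minus strand, reading towards the gene, and it holds the summit of each list.
cebp-1 upstream region: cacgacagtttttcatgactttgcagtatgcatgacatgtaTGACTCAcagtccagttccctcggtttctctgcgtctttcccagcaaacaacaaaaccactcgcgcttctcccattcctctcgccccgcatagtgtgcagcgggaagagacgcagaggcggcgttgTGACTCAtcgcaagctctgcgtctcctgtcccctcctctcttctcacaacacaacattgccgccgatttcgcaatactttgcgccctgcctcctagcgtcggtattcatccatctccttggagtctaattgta
The site nearer the gene is at X:1454587-1454593, centred 722 bp upstream of the 5' end and 20 bp from the pooled summit. The other is at X:1454713-1454719, centred 848 bp upstream and 106 bp from that summit. The pair is 126 bp apart.

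The region upstream of cebp-1 had the highest signal of all nuclear entries in both replicate lists. It was also first in the pooled and IDR lists, which derive from the same 2 replicates and are not separate measurements. It spans X:1454429-1454789 in the pooled and IDR lists and lies between protein-coding genes. Its summit is 742 bp upstream of cebp-1, whose 5' end is the nearest among such genes. Its signal was 688 in the pooled and IDR lists, 395 in replicate 1 and 293 in replicate 2. It ranked 2 of all entries in each list, behind an entry of the mitochondrial genome. The replicates placed the summit 742 and 744 bp upstream, 2 bp apart.

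Against the other entries this was an extreme position. The next nuclear entry in each list lay 172 to 175 bp upstream of cdc-48.1, the gene of an AAA ATPase of protein quality control, with 493 in the pooled list, 311 in replicate 1 and 179 in replicate 2. The cebp-1 signal was 1.40 times that value in the pooled list, 1.27 times in replicate 1 and 1.64 times in replicate 2. Against the median nuclear entry it was 40.1 times higher in the pooled list, 41.1 times in replicate 1 and 36.7 times in replicate 2. So the lead over the runner-up was moderate while the distance from a typical entry was large, in both replicates alike.

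The strongest region of cebp-2 was more ordinary. It spans 340 bp (I:6252765-6253104), runs from the end of cof-2 across the gap to the start of cebp-2, and has its summit 147 bp upstream of the cebp-2 5' end. Its signal was 65.3 in the pooled and IDR lists, rank 897 of the pooled list. Replicate 1 gave 49.2 at rank 654 and replicate 2 gave 19.7 at rank 1444. The region was thus higher in rank in replicate 1 than in replicate 2. Relative to the median nuclear entry it was 3.81 times higher in the pooled list, 5.13 times in replicate 1 and 2.47 times in replicate 2, and within the IDR list it was near the median, at 1.04 times.

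Set side by side within a list, the strongest cebp-1 signal was 10.5 times the strongest cebp-2 signal in the pooled list, 8.02 times in replicate 1 and 14.9 times in replicate 2. The order was the same in both replicates, and this order is part of what led to the choice of the genes.

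**Figure D1:**
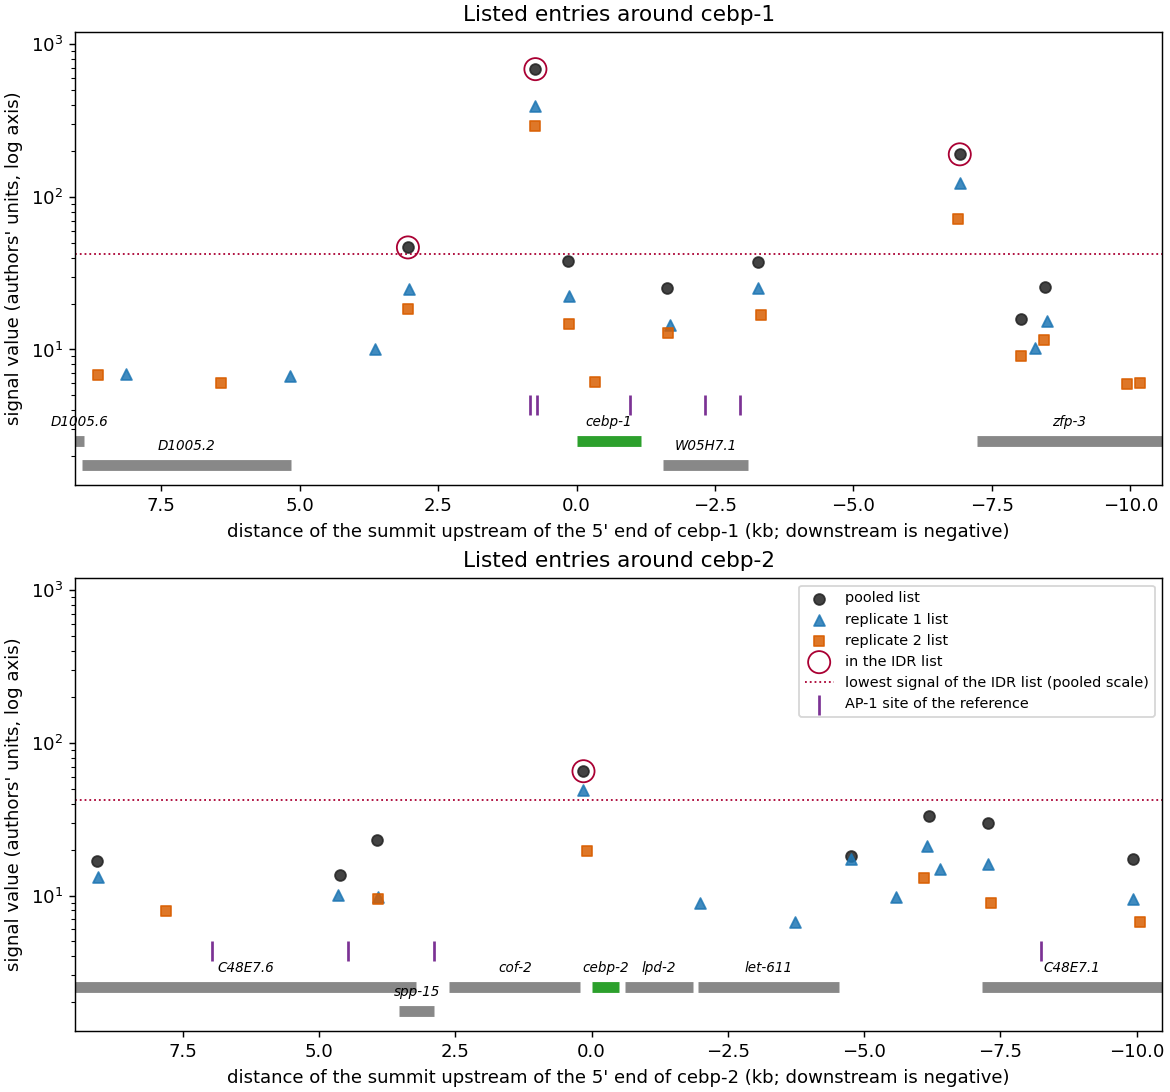
Signal of each listed entry (log axis, authors' units) against the distance of its summit from the 5' end of cebp-1 (top) and cebp-2 (bottom), in kb with upstream to the left; circles, triangles and squares are the pooled, replicate 1 and replicate 2 lists, red rings mark entries of the IDR list, purple ticks are TGACTCA sites, and bars are genes (member in green; upper row, same strand as the member). The entry 742 bp upstream of cebp-1 stands far above all others, while the highest entry of cebp-2, 147 bp upstream, lies above the lowest signal of the IDR list (42.5, dotted line).

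From 10 kb upstream to 10 kb downstream of cebp-1, the IDR list had 3 entries, the pooled list 8, replicate 1 11 and replicate 2 13. Around cebp-2 the same lists had 1, 8, 12 and 6. Over all protein-coding genes the medians were 0, 4, 6 and 5. A window of this kind held at least 1 IDR summit for 33.7% of genes and at least 1 pooled summit for 91.1%, so the mere presence of an entry says little of either gene. At least 3 IDR entries were found for 2.69% of genes, and the 13 entries of replicate 2 around cebp-1 were equalled or exceeded by 2.93%. The 8 pooled entries of cebp-1 were equalled or exceeded by 17.1% of genes, and its 11 entries of replicate 1 by 16.4%. The single IDR entry of cebp-2 is the count that the 33.7% refers to, and its 6 entries in replicate 2 were equalled or exceeded by 42.6% of genes. The 8 pooled entries of cebp-2 equal the count of cebp-1, so the same 17.1% applies. The 12 entries of cebp-2 in replicate 1 were equalled or exceeded by 11.96% of genes.

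The second IDR entry of the cebp-1 window, at X:1446879-1446980, lies 6920 bp downstream of the cebp-1 5' end and belongs by position to another gene. Its summit is 305 bp upstream of zfp-3, and its signal was 190 in the pooled list (rank 88), 123 in replicate 1 (rank 82) and 71.5 in replicate 2 (rank 95). It is narrow, 102 bp, and its summit moved by 41 bp between the replicates. The third, at X:1456742-1457081, lies 3044 bp upstream of cebp-1 and 2110 bp upstream of the divergent gene D1005.2, between both. Its signal was 46.7 in the pooled list (rank 1637), 24.8 in replicate 1 (rank 2251) and 18.3 in replicate 2 (rank 1654). It is close to the lowest signal of the IDR list, 42.5.

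Next to the cebp-1 5' end there was a weaker region that did not enter the IDR list. At X:1453843-1454182, with its summit 145 bp upstream, it had a signal of 37.8 in the pooled list (rank 2281), 22.5 in replicate 1 (rank 2702) and 14.7 in replicate 2 (rank 2540). The replicates' summits were 3 bp apart and their ranks nearly equal. By distance it matches the cebp-2 region, whose summit is 147 bp upstream, but the cebp-2 region had the higher signal in the pooled list and in both replicates.

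The other 4 pooled entries of the cebp-1 window were lower. One lay 180 bp upstream of W05H7.1 (37.2, rank 2338), one in the 3' untranslated region of W05H7.1 (25.3, rank 4402) and a pair in introns of zfp-3 (25.5 and 15.9, ranks 4353 and 12152). Within the cebp-1 gene itself only replicate 2 listed an entry, 326 bp downstream of the 5' end, with a signal of 6.08 at rank 21822, near the bottom of that list (lowest signal 5.88).

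Beyond its strongest region, the cebp-2 window held 7 pooled entries, none of them in the IDR list and none nearer than 3927 bp to the cebp-2 5' end. The highest had a signal of 33.3 (rank 2764), lay 6194 bp downstream of the 5' end and was 973 bp upstream of C48E7.1. The remaining 6 ranged from 13.6 to 29.7 in the pooled list, at ranks 3348 to 17239, and lay in introns or coding exons of C48E7.1 and C48E7.6 or between genes. In all 4 lists cof-2 had no summit in its promoter window, taken as 1000 bp upstream to 200 bp downstream of a 5' end.

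At the edges of the windows, a pooled entry of signal 16.4 (rank 11344) lay 68 bp outside that of cebp-2, and the nearest pooled entries outside that of cebp-1 were 3613 and 6030 bp away (19.2 and 19.0). The nearest IDR entries outside were at least 20283 bp away for both genes. At the IDR limit, the lowest kept and the highest left-out signals were 46.7 and 37.8 for cebp-1 and 65.3 and 33.3 for cebp-2.

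All 8 pooled entries around cebp-1 overlapped an entry in both replicate lists by at least 1 bp, and 5 of the 8 around cebp-2 did. Together that is 13 of 16, where 51.0% of all pooled entries were found in both. Most of the 16 had signals above the pooled median of 17.1, and the 51.0% was not matched for signal. The 3 missing ones, at signals of 18.2, 16.8 and 13.6, were listed in replicate 1 but not in replicate 2. The lists of both replicates were made with the same control file, so they share any bias of that control.

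The replicates placed the cebp-1 region more alike than they placed most regions. Across the 1879 IDR entries found in both replicates, summits were a median of 27 bp apart and ranks differed by a median factor of 1.60. For cebp-1 these were 2 bp, with 92.7% of entries farther apart, and 1, with 99.5% of entries larger. For cebp-2 they were 64 bp, with 19.0% farther apart, and 2.21, with 27.4% larger. The cebp-2 summit moved from 147 bp upstream in replicate 1 to 83 bp in replicate 2. Close ranks were not particular to cebp-1 among entries near the top. The cdc-48.1 entry had ranks 4 and 6 and a mitochondrial entry 3 and 3, while another mitochondrial entry had 6 and 137. The ranks of cebp-1 are also part of what led to its choice.

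**Figure D2:**
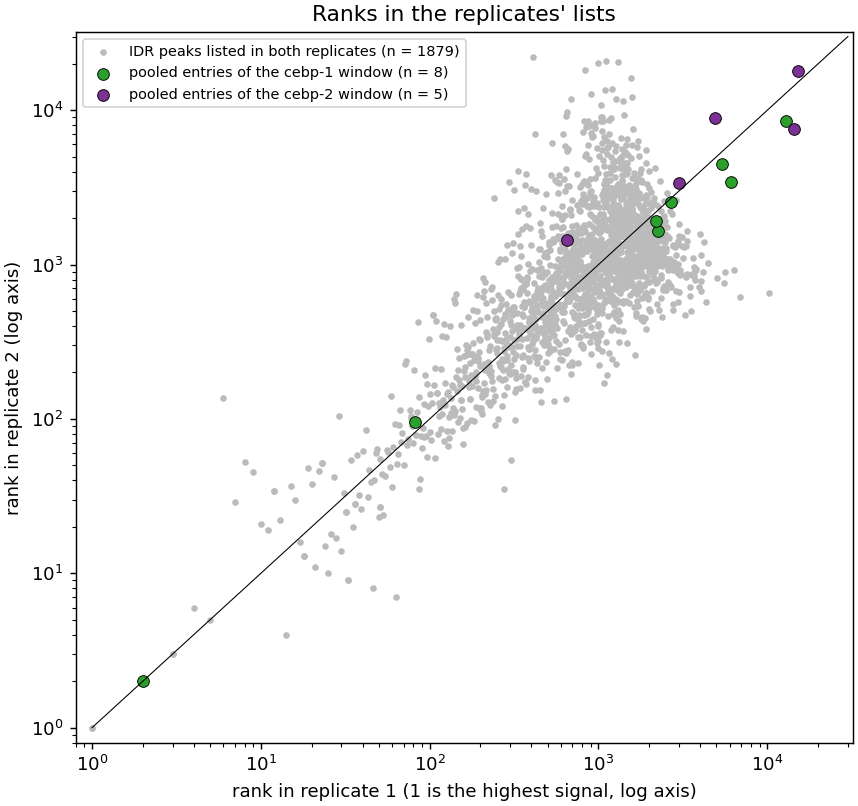
Rank in replicate 2 against rank in replicate 1 (both log axes, 1 is the highest signal) for the 1879 IDR entries listed in both replicates (grey) and for pooled entries of the cebp-1 window (green, n = 8) and the cebp-2 window (purple, n = 5) found in both; the line marks equal ranks. The strongest cebp-1 region sits at rank 2 in both, and that of cebp-2 lies above the line at ranks 654 and 1444.

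Counting each gene by its strongest promoter entry, cebp-1 was first in each list: of 1529 genes with a summit in the IDR list, 6565 in the pooled list, 8139 in replicate 1 and 6956 in replicate 2. These are 7.65%, 32.8%, 40.7% and 34.8% of all protein-coding genes. By the same count cebp-2 was number 785 in the IDR and pooled lists, 569 in replicate 1 and 1182 in replicate 2. So cebp-2 lay near the middle of the genes of the IDR list but in the upper part of the far longer pooled list.

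The genes with ranks most like those of each member were found over the 4810 genes that had a promoter entry in both replicates, by the sum over the 2 replicates of the absolute difference in log2 rank. For cebp-1 the nearest were the mitochondrial gene ND4 (ranks 3 and 3, distance 1.17), cdc-48.1 (ranks 4 and 6, 2.58) and mitochondrial CYTB (ranks 5 and 5, 2.64). For cebp-2 the nearest was its neighbour lpd-2, at distance 0 because both promoter windows hold the same entry, whose summit is 766 bp upstream of lpd-2. Next came glo-4 (ranks 614 and 1469, 0.12) and, tied and sharing an entry, F27D4.4 and F27D4.7 (ranks 715 and 1471, 0.16). The measure tells only that the ranks are close, and near the top of the list few genes are close to any other.

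Searching 10 short motifs on both strands within 50 bp of summits, the strongest cebp-1 region had 1 TGACTCA, and no other motif except TGANTCA, of which TGACTCA is a case. That AP-1 site was within 50 bp of the summit in all 4 lists, 20 bp away in the pooled, IDR and replicate 1 lists and 22 bp in replicate 2. No IDR entry had more than 1 TGACTCA within 50 bp. Over the whole of each interval, 126 of 1895 IDR entries (6.65%) held at least 1 and 7 (0.369%) held 2 or more, the cebp-1 region among them. In the pooled list 1009 entries (4.96%) held at least 1 and 48 (0.236%) held 2 or more.

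The strongest region of cebp-2 held none of the 10 motifs within 50 bp of its summit. Its window has 4 TGACTCA sites, and the nearest pooled summit to any of them was 155 bp away. The cebp-1 window has 5. Those outside the strongest region are 1 in an intron of cebp-1 itself, 962 bp downstream of its 5' end, and a pair in an intron and a coding exon of W05H7.1, and these were 328 to 693 bp from the nearest pooled summit. Most AP-1 sites of the genome were likewise away from summits: of 9580 in the nuclear genome, 76 (0.793%) were within 50 bp of an IDR summit and 419 (4.37%) of a pooled one.

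As background, TGACTCA was within 50 bp of 72 of 1895 IDR summits, which is 3.80% (95% interval 2.98 to 4.76%), and 1.74% of the pooled summits outside the IDR list (1.56 to 1.94%). The C/EBP palindrome TTGCGCAA was near 0.686% of IDR summits (0.366 to 1.17%) and 0.173% of the others (0.119 to 0.245%). The composite TGATGCAA of C/EBP and ATF factors was near 0.264% and 0.417%, and TGACGTCA, the cAMP response site, near 0.950% and 0.606%. GAGAGAG (the purine repeat of the plot of motifs) was near 16.2% of IDR summits and 4.16% of the others. The remaining motifs were TGANTCA (6.02% and 4.17%), the E-box CACGTG (3.80% and 2.18%), the GC box GGGCGG (4.80% and 2.05%), the site of GATA-type factors, TGATAA (4.96% and 11.6%) and the scrambled TCACTGA (1.42% and 1.72%). An AP-1 site at the summit was therefore uncommon among IDR entries, and the cebp-1 region is one of those that had it. The median share of G and C around summits was 45.5% for all IDR entries and 34.7% for the others. Its part in the motif differences was not tested. Promoter windows, from 1000 bp upstream to 200 bp downstream of a 5' end, are far longer than the stretches around summits. Their shares, given next, therefore cannot be set against those above. In promoter windows of all genes the motifs were found in 11.7% for TGACTCA, 31.5% for TGANTCA, 5.88% for TGACGTCA, 1.97% for TTGCGCAA, 5.13% for TGATGCAA, 18.4% for CACGTG, 19.2% for GGGCGG, 17.0% for GAGAGAG, 72.0% for TGATAA and 18.2% for TCACTGA.

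**Figure D3:**
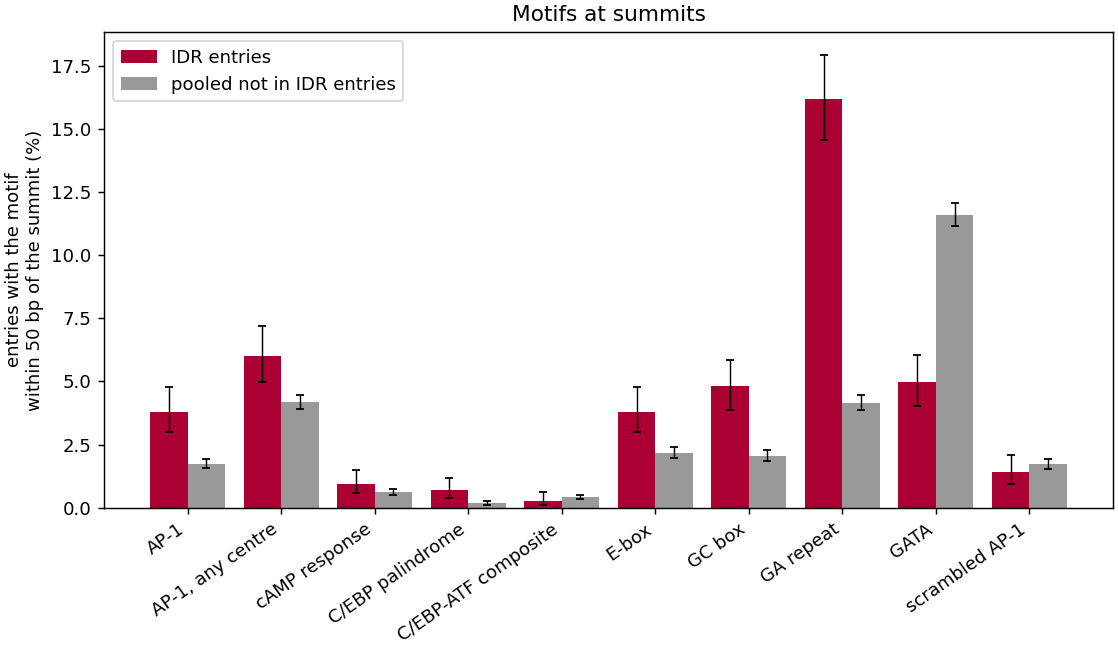
Percent of entries with each of 10 motifs within 50 bp of the summit, for the 1895 IDR entries (red) and the pooled entries outside that list (grey); error bars are 95% Clopper-Pearson intervals, which cover counting error only. The AP-1 site TGACTCA is at 3.80% of IDR entries against 1.74% of the others, and GAGAGAG (labelled as a repeat) has the tallest bar at 16.2%.

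The AP-1 site of cebp-1 is set beside those of other strong regions so that their flanks can be read together. Of the 100 nuclear entries with the highest pooled signal, 6 had TGACTCA within 50 bp of the summit (interval 2.23 to 12.6%), and 5 of them are shown (the sixth is on a chromosome whose sequence is not printed here), each as 21 bases of the RefSeq WBcel235 genome with the site in capitals and named by the gene with the nearest 5' end. These genes other than cebp-1 were chosen after their values were seen. The names mark the nearest gene and not a promoter in each case. Summits lay 742 bp upstream of the 5' end for cebp-1, 295 bp for F20D1.3 and 4075 bp for str-206. With downstream as negative, the distances were -7842 bp for F09E5.14 and -1566 bp for ZK154.6.
cebp-1 (X:1454580-1454600, minus strand, signal 688): ggcgttgTGACTCAtcgcaag
F09E5.14 (II:5336977-5336997, minus strand, signal 342): gacgaagTGACTCAtcgatga
F20D1.3 (X:14975844-14975864, plus strand, signal 249): aacatgcTGACTCAtcgtgcc
str-206 (V:6214086-6214106, plus strand, signal 218): gctatgaTGACTCActtggtt
ZK154.6 (X:7791963-7791983, minus strand, signal 173): cccatgaTGACTCAcccttgt
The second site of the cebp-1 region, 106 bp from the summit, is given for comparison.
cebp-1 second site (X:1454706-1454726, minus strand): acatgtaTGACTCAcagtcca

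The remaining entries around cebp-1 had other letters at their summits, and 101 bases centred on each pooled summit are shown for the weak region next to the gene and the IDR entry before zfp-3 (RefSeq WBcel235, minus strand, motif in capitals).
cebp-1 region 145 bp upstream (X:1453963-1454063): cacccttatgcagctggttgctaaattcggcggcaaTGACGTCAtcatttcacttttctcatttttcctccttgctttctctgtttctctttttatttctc
cebp-1 window entry before zfp-3 (X:1446898-1446998): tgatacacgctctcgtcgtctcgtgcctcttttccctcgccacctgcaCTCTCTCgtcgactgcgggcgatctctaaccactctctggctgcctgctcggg
The first holds TGACGTCA, the site of CREB and ATF factors, centred 10 bp from the summit. The second holds 1 GAGAGAG, read here on its other strand as CTCTCTC.

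The base composition of the members' regions differed. In the 101 bases around the summit, G and C made up 63.4% for cebp-1, which only 0.856% of nuclear IDR entries equalled or exceeded, and 40.6% for cebp-2, which 78.3% equalled or exceeded. The median of nuclear IDR entries was 46.5%, with quartiles at 40.6 and 51.5%. Sequencing coverage can depend on base composition, and its part in these signals was not tested.

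Of the Fos and Jun genes, jun-1 had a high promoter entry and fos-1 none. The gene of the Jun-type partner, jun-1, had its strongest entry 86 bp upstream, with a signal of 378 in the pooled list (rank 8), 262 in replicate 1 (rank 10) and 123 in replicate 2 (rank 21). Its summit had no TGACTCA within 50 bp. The gene fos-1, whose product was tagged, had no promoter entry in any of the 4 lists. Its promoter window was set at the outer start of its annotated record, and starts inside the gene were not examined.

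Of 29 bZIP genes found in the annotation, cebp-1 and cebp-2 included, 9 (31.0%) had an IDR summit in their promoter window, beside 7.65% of all protein-coding genes, and without the pair 7 of 27 did. The count of 9 was 5 in the 1895 highest entries of replicate 2 and 5 for IDR entries above the median signal. No share of all genes is given for these settings, and the 7.65% does not apply to them. In the pooled list 18 did (62.1%, beside 32.8%), with a median strongest signal of 40.4 beside 21.8 over all genes with an entry. Without the pair, which were chosen for these signals, 16 of 27 did (59.3%), with a median of 29.7. The highest 4 by pooled signal were cebp-1, jun-1, xbp-1 and zip-4. The gene xbp-1, which encodes a factor of the unfolded protein response, had an entry 26 bp upstream with a signal of 170 (rank 115), 103 in replicate 1 (rank 133) and 66.3 in replicate 2 (rank 109). The gene zip-4 had 107 (rank 332), 66.1 in replicate 1 (rank 343) and 43.4 in replicate 2 (rank 295).

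Directly behind these came cebp-2 at 65.3. Chosen after their values were seen, the others in the IDR list were crh-1, the worm CREB gene (59.2), atf-4 (55.3), atfs-1 of the mitochondrial unfolded protein response (49.0) and zip-11 (42.9). Only cebp-1 of the bZIP genes with a pooled promoter entry had TGACTCA within 50 bp of that summit. In signal, then, cebp-1 stood above its class and cebp-2 sat in the middle of those with an IDR entry.

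Genes of pathways related to the known roles of CEBP-1 were read from 3 lists. Only the DLK-1 list was drawn up as a pathway that acts on cebp-1. A place in a list does not mean that a gene's product acts with CEBP-1. Of 9 genes of the DLK-1 pathway, 2 (22.2%, beside 7.65% of all genes) had an IDR promoter summit and 5 (55.6%, beside 32.8%) had a pooled one. The gene mak-2, of the kinase at the end of the cascade, had an entry 458 bp upstream with a signal of 75.9 in the pooled list (rank 668), 46.4 in replicate 1 and 24.4 in replicate 2. For glo-4, whose product works with the ubiquitin ligase RPM-1, an entry 561 bp upstream had 69.5 (rank 800), 50.7 in replicate 1 and 19.5 in replicate 2, close to the values of cebp-2. Among genes chosen after their values were seen, dlk-1, mkk-4 and rpm-1 had no promoter entry in any of the 4 lists, starts inside these genes not being examined. The p38-type kinase gene pmk-3, chosen in the same way, had 38.9 in the pooled list (rank 2183), below the IDR limit, and had TGACTCA within 50 bp of its summit.

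Of 8 genes of the JNK-type pathway of axon regrowth, 1 (12.5%) had an IDR promoter summit and 6 (75%, beside 32.8% of all genes) a pooled one. It was kgb-1, of a JNK-like kinase, with a signal of 92.2 (rank 451), 61.5 in replicate 1 and 25.3 in replicate 2. Its summit, 514 bp upstream of kgb-1, is nearer to the 5' end of T07A9.12. Of 9 genes of the p38 immune and ZIP-2 pathway, 1 (11.1%) had an IDR promoter summit and 7 (77.8%, beside 32.8%) a pooled one. It was nipi-3, the pseudokinase gene, with 2 IDR summits in its window. The stronger lay 280 bp upstream and had a signal of 127 in the pooled list (rank 227), 86.9 in replicate 1 (rank 198) and 43.3 in replicate 2 (rank 297). The IDR counts of 1 and 2 stand beside 7.65% of all genes. The median strongest pooled signal was 38.9 for the DLK-1 list, 26.0 for the JNK-type list and 20.5 for the p38 list, beside 21.8 over all genes with an entry. With 8 or 9 genes in a list, nothing particular to a list is read from these shares. With a window of 500 bp upstream in place of 1000 bp, the 4 pathway genes with an IDR summit became 2. The 7.65% does not apply to that window.

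**Figure D4:**
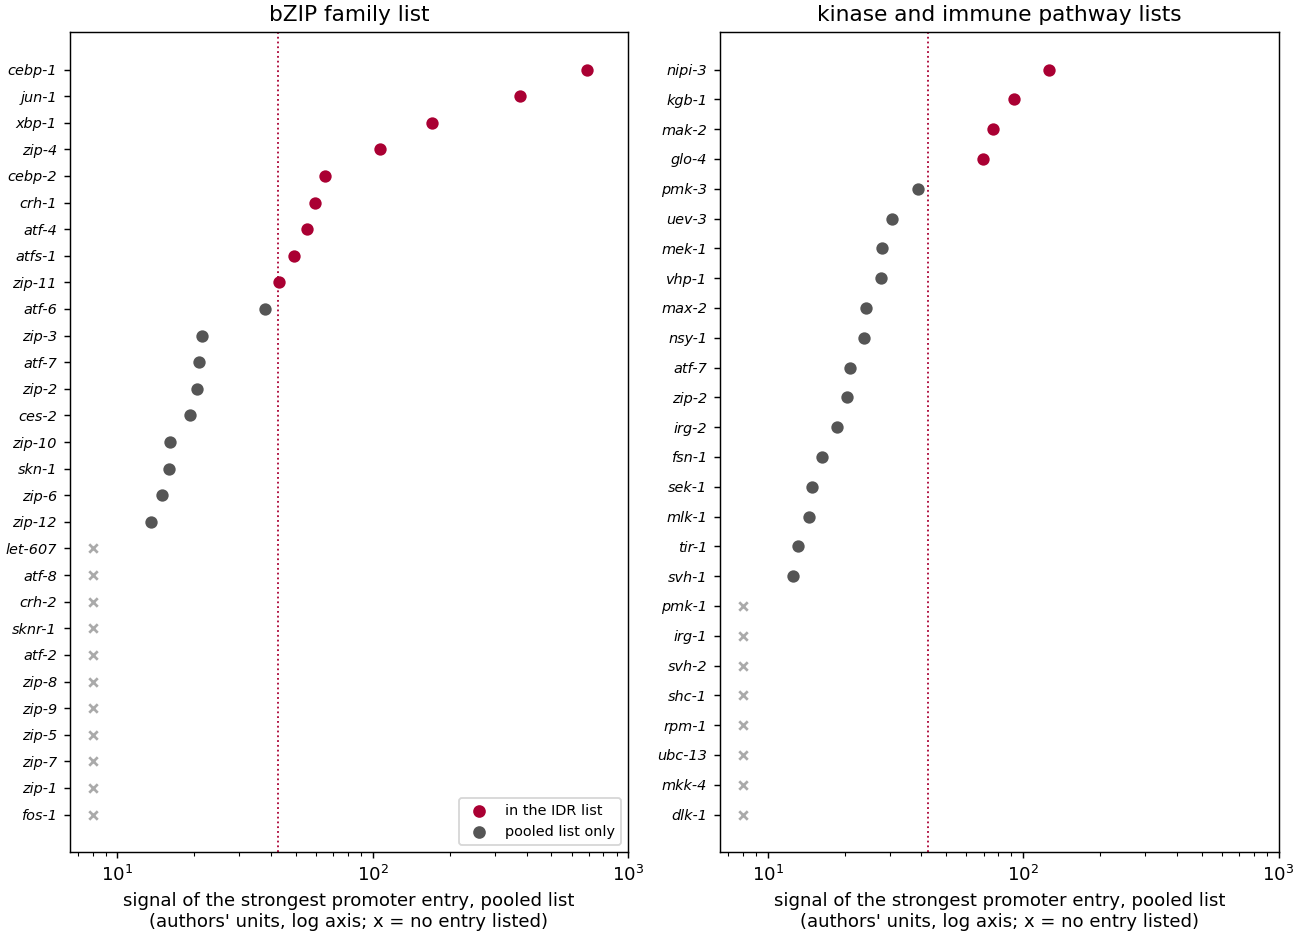
Signal of the strongest promoter entry in the pooled list (log axis, authors' units) for 29 bZIP genes (left) and the 26 genes of the pathway lists (right); red points are in the IDR list, grey points only in the pooled list, grey crosses have no pooled promoter entry and are placed at a fixed position, and the dotted line is the lowest signal of the IDR list. Points for cebp-1 (688) and jun-1 (378) lead the bZIP genes, and nipi-3 (127) leads the pathway genes.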

How the data were processed

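The authors deposited 8 region lists in narrowPeak format. The 4 of build ce11 were used, and the 4 of build ce10 were not used here. The deposited text files state that reads of 1 replicate and a control made each replicate list, that reads of both with the same control made the pooled list, and that these 3 lists made the IDR list. For the aligner, peak caller and IDR threshold, nothing was given in the sources used here. Column 7 of the deposited lists, the signal, is the authors' value with no stated scaling. The deposited −log10 q values are capped (at 3.63 in the pooled list, where 2133 entries have that value), so ranks were taken by signal. Depth per replicate is unknown.

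Entries were assigned by summit to protein-coding genes of Ensembl release 115 (WBcel235), within 10 kb of either gene end. They were also assigned to promoter windows that began 1000 bp before and ended 200 bp after the 5' end. That end was the outer end of each gene's annotated record, so starts inside a gene were not examined. Neighbours, nearest genes and positions between genes likewise refer to protein-coding genes only. Entries overlapped where they shared at least 1 bp. Motifs were matched exactly within 50 bp of summits. Intervals of shares are 95% Clopper-Pearson intervals and cover counting error only; neighbouring entries are not independent. Of 30 bZIP symbols, 29 matched, and atf-5 was not found. The code was tested on simulated data with planted motifs and genes. With 1 group of 2 replicates and members picked from these values, no p-values were computed. The members and gene lists were chosen with earlier results of these data known.

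Genes were named by a rule: the members, jun-1 and fos-1, their neighbours, genes nearest to IDR entries of the windows, up to 4 genes per list with the highest IDR promoter entry, and the 3 genes of most similar rank. The text marks any gene picked outside it. Scripts ran in Python 3.11.15 with scipy 1.17.1 for intervals, pandas 2.3.3 and numpy 2.4.6 for tables, and matplotlib 3.10.9 for figures.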

Additional observations from a re-analysis of the deposited data

How the results depend on the processing

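The strongest cebp-1 entry ranked 2 in every setting except on nuclear chromosomes only, where it ranked 1, and in either replicate alone (without replicate 1 or without replicate 2) it was 2. The strongest cebp-2 entry ranked 654 to 1444 in single replicates. Entries around cebp-1 were 8 in the pooled list, 11 to 13 in single replicates, 5 within 5 kb and 3 in the IDR list. Those around cebp-2 were 8, 6 to 12 in single replicates, 4 within 5 kb and 1 in the IDR list. Within 20 kb they were 11 and 12, and by overlap with the window 8 and 9. The 13 entries found in both replicates were 11 with at least 50% overlap and 7 when summits had to lie within 50 bp. The AP-1 share of 3.80% was 2.06% within 25 bp, 6.23% within 100 bp and 6.65% over whole intervals, wider windows holding more letters, and 3.54 to 3.59% for the 1895 highest entries of single replicates. The 9 bZIP genes were 5 for the 947 IDR entries above the median signal and 5 to 9 in single replicates, with 5 in replicate 2, and 8 or 10 with a window of 500 or 2000 bp upstream. The 4 pathway genes were 2 with a window of 500 bp upstream, 6 with 2000 bp, 4 in either replicate and 4 above the median signal. No share of all genes is given for these changed settings of the bZIP and pathway counts. For the other changes the cause was not tested. No paired analysis was possible because only 1 group was measured. Unknown depth limits every absence, and a control shared by both replicates limits what their likeness shows.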
